A study of Drosophila melanogaster with 2 samples.

Results

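Mitochondrial ribosomal protein genes were taken as the protein-coding genes whose Ensembl symbol begins with mRpL or mRpS and a number. This gave 73 of the 13945 protein-coding genes on the 6 main chromosome arms, with 47 for the large (mRpL) and 26 for the small (mRpS) ribosomal subunit. Whole Drosophila melanogaster embryos of strain sob-GFP, aged 0 to 24 h, had been used for chromatin immunoprecipitation and sequencing (ChIP-seq) of Sob, a zinc-finger transcription factor related to Odd-skipped. The flies expressed a fusion of Sob with enhanced green fluorescent protein (eGFP), which was precipitated with an antibody against GFP. The 2 biological replicates formed 1 group, and the comparison made was of these genes with the other genes of the same genome. Embryos of all stages and cell types were pooled, so a peak cannot be placed in a stage or a tissue. Protein levels of the fusion, and any line without the tag, were not analysed here.

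Mitochondria carry their own ribosomes, which translate the few mRNAs encoded by mitochondrial DNA, all of them for subunits of the respiratory chain and ATP synthase. The RNAs of these ribosomes come from mitochondrial DNA, but every protein is encoded in the nucleus, made in the cytoplasm and imported. Proteins numbered as in bacterial ribosomes form the shared core with the decoding and peptidyl transferase centres. Most of those with higher numbers occur in mitochondrial ribosomes and not in bacteria.

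The sequence at the strongest of these promoters is shown first, because A and T rich summit sequence and a shared promoter are the properties described below. Sequences are from RefSeq's Release 6 genome, which has the dm6 coordinates, and are written 5′ to 3′ on the strand of the mitochondrial ribosomal protein gene. The first 4 windows span 101 bases centred on a summit, with the longest unbroken run of A and T in capitals. They belong to 3 of the strongest members and to mRpL20, which had the lowest G and C share of all 38 summits.
mRpL23, chr3L:2373549-2373649 (minus strand): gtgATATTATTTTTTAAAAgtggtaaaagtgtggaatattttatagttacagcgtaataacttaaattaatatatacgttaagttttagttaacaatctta
mRpS23, chr2L:13835405-13835505 (minus strand): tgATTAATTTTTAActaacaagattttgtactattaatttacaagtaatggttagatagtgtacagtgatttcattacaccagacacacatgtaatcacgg
mRpS2, chr2L:4850521-4850621 (minus strand): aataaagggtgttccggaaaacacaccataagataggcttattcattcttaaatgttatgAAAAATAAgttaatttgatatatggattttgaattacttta
mRpL20, chr3L:13018091-13018191 (minus strand): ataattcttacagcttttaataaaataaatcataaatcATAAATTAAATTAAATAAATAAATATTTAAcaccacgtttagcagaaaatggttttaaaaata
For contrast, the summit of mRpS26 is shown, which had one of the higher G and C shares (51.5%).
mRpS26, chr3L:18106163-18106263 (plus strand): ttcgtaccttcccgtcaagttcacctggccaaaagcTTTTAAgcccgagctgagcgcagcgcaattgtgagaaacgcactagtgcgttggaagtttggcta
The whole stretch between the transcription start sites (TSSs) of Art3 and mRpS10, 258 bases with both start bases, shows how 1 peak lies between 2 diverging genes. The 21 bases centred on the summit are in capitals.
mRpS10, chr3R:15229408-15229665 (plus strand): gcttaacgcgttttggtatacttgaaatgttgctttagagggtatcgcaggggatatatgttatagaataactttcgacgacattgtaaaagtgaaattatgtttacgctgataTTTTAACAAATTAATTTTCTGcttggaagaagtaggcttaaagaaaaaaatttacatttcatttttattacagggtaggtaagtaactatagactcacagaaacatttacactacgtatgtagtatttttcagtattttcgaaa

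Sob-eGFP peaks were found at the promoters of 38 mitochondrial ribosomal protein genes (52.1%), against 4589 of all protein-coding genes (32.9%). A gene was counted as marked when a peak summit of the main list, made from both replicates, lay within 1 kb of any of its TSSs. The subunits had similar shares, with 24 of 47 large subunit genes (51.1%) and 14 of 26 small subunit genes (53.8%). Proteins numbered as in bacteria, with mRpL47 and mRpS24 (bacterial L29 and S3), had 23 of 44 genes marked (52.3%), and the others, with higher numbers, 15 of 29 (51.7%). No test was run on these counts, since there was 1 group and no condition. Among genes with 1 TSS, 35 of 67 members (52.2%) and 26.0% of 10246 genes were marked.

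The replicates differed in how many of these genes they marked. In replicate 1's own list 37 members were marked (50.7%), against 24.3% of all genes, and in replicate 2's own list 25 members (34.2%), against 24.4% of all genes. Both own lists marked 24 members (32.9%) and 19.0% of all genes. Fewer members were marked in replicate 2, while the share of all genes was nearly the same in both lists. Without replicate 1, that is from replicate 2's own list alone, 25 members were marked, against 38 in the main list. The own lists held 4490 and 4626 peaks, the main list 7002. The numbers of reads behind them are unknown, so no interval for depth is given.

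**Figure D1:**
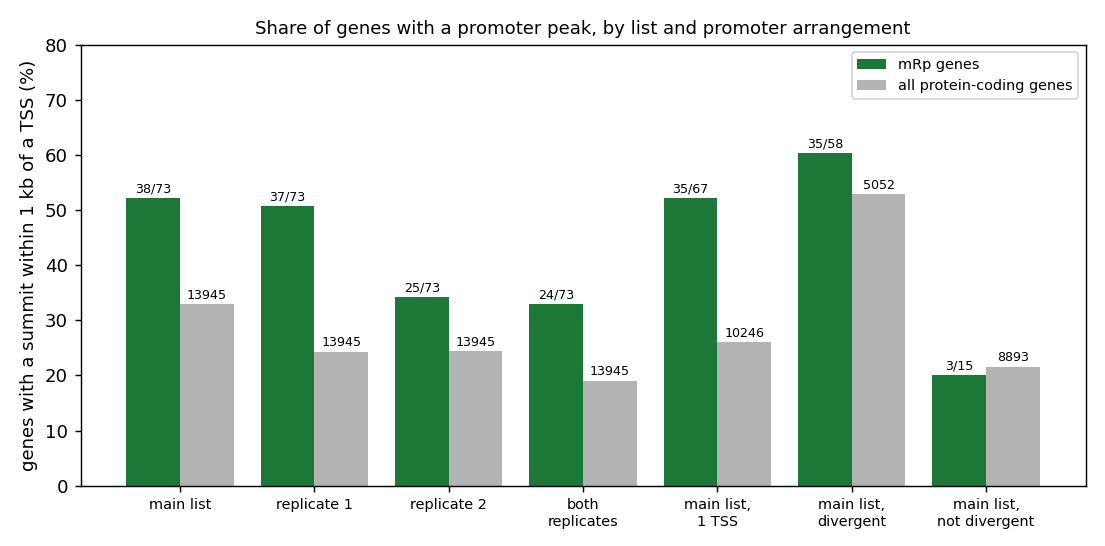
Percent of genes with a Sob-eGFP summit within 1 kb of a TSS, for mitochondrial ribosomal protein (mRp) genes in green and all protein-coding genes in grey, by peak list and promoter arrangement; labels give marked over total members, or the number of genes. The green bar exceeds the grey one in 6 of the 7 pairs, by least among divergent genes (60.3% and 52.9%), and is lower among genes with no divergent neighbour (20.0% and 21.6%).

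Mitochondrial ribosomal protein genes mostly lie head to head with another gene. A divergent neighbour, here a protein-coding gene on the opposite strand whose TSS lies upstream within 1 kb, was present for 58 of 73 members (79.5%), against 36.2% of all protein-coding genes. The same arrangement held for 55 of 92 cytoplasmic ribosomal protein genes (59.8%) and 44 of 88 respiratory chain and ATP synthase genes. Among divergent genes 35 of 58 members (60.3%) were marked, against 52.9% of 5052 genes. Among genes with no divergent neighbour 3 of 15 members (20.0%) were marked, against 21.6% of 8893 genes. In the main list the share marked among members was thus closer to that of all genes when genes of the same arrangement were compared. Of the 58 divergent members, replicate 1's own list marked 34, against 42.3% of divergent genes, and replicate 2's marked 24, against 39.6%. The share of divergent members was thus well above that of all divergent genes in replicate 1 and near it in replicate 2.

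Nearly all marked members shared their peak with another gene. The summit lay within 1 kb of another protein-coding gene's TSS for 36 of 38 members (94.7%), against 59.4% of all marked genes. A divergent neighbour within 1 kb was present for 35 of the 38, against 2672 of the 4589 marked genes. The shares of shared peaks thus largely repeat the arrangement of the genes. The summit was nearer to the other gene's TSS for 19 of the 36 members with a shared peak (52.8%), against 49.0% of marked genes with a shared peak. For 15 it was nearer to the member's own TSS. In 2 pairs the member and another gene have the same TSS in the annotation, mRpL53 with CG33155 and mRpL13 with CG10602. The summits of mRpL10 and mRpL9 had no other protein-coding TSS within 1 kb. A peak that serves 2 start sites cannot be assigned to either gene from these lists.

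The summit usually stood between the diverging start sites. This held for 28 of the 35 marked members with a divergent neighbour, against 63.5% of all marked divergent genes. Relative to the member's own TSS the median summit position was −139 bp (quartiles −194 and −64.3), where negative values are upstream, against −103 bp for all marked genes. The summit was upstream of the TSS in 34 members (89.5%), against 79.8% of all marked genes, and downstream in mRpL23, mRpS18B, mRpS11 and mRpS29. It was within 200 bp of the TSS in 28 members (73.7%), against 63.5% of all marked genes. Summits lay between genes for 30 members, in an exon for 6 and in an intron for 2. The same split over all marked genes is not given, so these counts cannot be called particular to the members. The intron summits were those of mRpL53, in AGO1, and mRpL2, in FoxK. The 35 pairs had a median distance of 291 bp between their start sites, within a range of 20 to 793 bp.

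**Figure D2:**
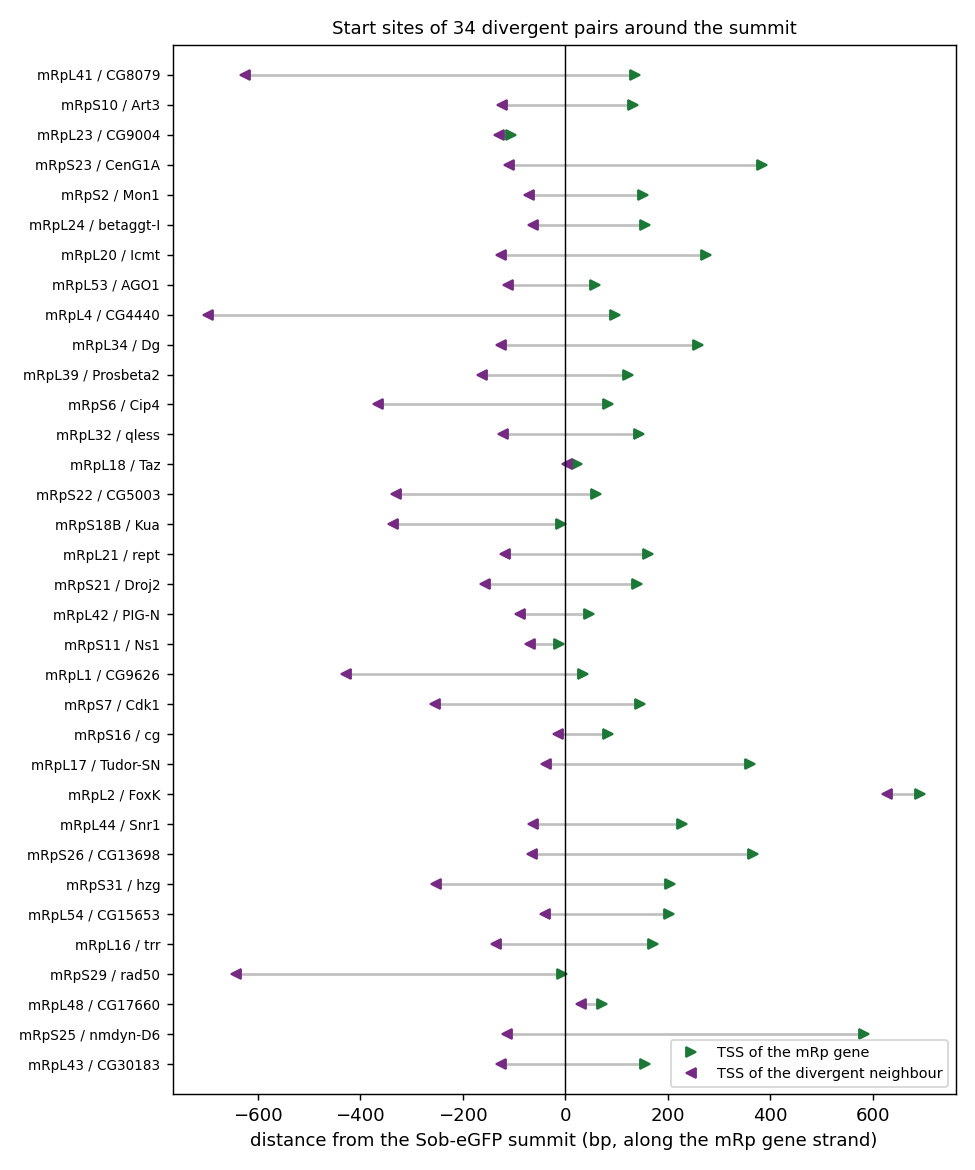
Position of the TSS of each marked mRp gene (green, pointing right) and of its divergent neighbour (purple, pointing left) around the Sob-eGFP summit, at 0 on the x axis in bp along the mRp gene's strand, for 34 of the 35 pairs ordered from the highest signal at the top. In 27 of these pairs the summit lies between the 2 start sites, and at mRpL2 both start sites lie to the right of it, at 628 and 692 bp.

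Marked divergent members had a median gap of 291 bp between the start sites and the 23 unmarked ones 99 bp, while all marked divergent genes had 292 bp and all unmarked ones 307 bp. Of the 18 members with a gap of 0 to 100 bp, 6 were marked, against 51.7% of the 835 genes with such a gap. With 101 to 200 bp it was 2 of 4 members, against 46.1% of 683 genes, and with 201 to 300 bp all 11 members, against 62.8% of 1045 genes. With 301 to 500 bp, the range with the most members, 12 of 20 were marked, against 56.0% of 1252 genes. With 501 to 1000 bp it was 4 of 5, against 45.9% of 1237 genes. These ranges of distance were chosen after the values had been seen.

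Signal is the authors' value per peak, on a scale that is not stated, and was compared within a list. The 38 marked members had a median promoter signal of 154.0 (quartiles 127.2 and 288.9), against 168.3 for all marked protein-coding genes (quartiles 114.8 and 283.6), and 20 of the 38 were below the median of all marked genes. Signals ran from 90.6 to 3389. Signals above 1000 were found in 4 members, 10.5% of those marked, against 116 of all marked genes (2.53%).

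The strongest promoter peak belonged to mRpL41 (FBgn0034001, 2R), which encodes a large subunit protein particular to mitochondria. Its signal was 3389 in the main list, 1927 in replicate 1's own list and 1485 in replicate 2's own list, at place 4 in each. Its summit stood 137 bp upstream of the mRpL41 TSS and 625 bp upstream of that of CG8079.

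The next 3 members were close to each other in signal. At mRpS10 (FBgn0038307, 3R), for a protein of the small subunit's head, the signal was 2172 in the main list, 1282 in replicate 1 and 896 in replicate 2. Its summit was 133 bp upstream of mRpS10 and 124 bp upstream of Art3, an arginine methyltransferase gene, in the stretch printed above. The peak of mRpL23 (FBgn0035335, 3L), for a protein at the exit of the large subunit's tunnel, had signals of 2012, 1143 in replicate 1 and 857 in replicate 2. It was in an exon of mRpL23, 79 bp downstream of the nearest of its 3 TSSs and 129 bp upstream of CG9004. The peak of mRpS23 (FBgn0260407, 2L), for a small subunit protein particular to mitochondria, had signals of 2009, 1125 in replicate 1 and 881 in replicate 2. It lay 383 bp upstream of mRpS23 and 109 bp upstream of CenG1A, which encodes a GTPase-activating protein for Arf. These 3 peaks held places 8, 12 and 13 in the main list, and places 10 to 16 in the replicates' own lists.

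A second step in signal followed. The peak of mRpS2 (FBgn0031639, 2L), whose protein sits between the head and body of the small subunit, had 871 in the main list, 533 in replicate 1 and 349 in replicate 2. It was 152 bp upstream of mRpS2 and 70 bp upstream of Mon1, a gene of late endosome maturation. The peak of mRpL24 (FBgn0031651, 2L), for another protein near the tunnel exit, had 671 in the main list, 314 in replicate 1 and 346 in replicate 2. It was 155 bp upstream of mRpL24 and 63 bp upstream of betaggt-I, which encodes a subunit of geranylgeranyl transferase I. Of these 6 members, mRpL24 was the only one with a higher value in replicate 2 than in replicate 1, although values of different lists need not share a scale.

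The other 6 of the 12 strongest had main-list signals between 243 and 419. The peak of mRpL20 (FBgn0036335, 3L), a protein that binds the large ribosomal RNA, had 419 in the main list, 234 in replicate 1 and 195 in replicate 2, and was 274 bp upstream of mRpL20 and 125 bp upstream of Icmt, which encodes a carboxyl methyltransferase of prenylated proteins. The peak of mRpL37 (FBgn0261380, 3R) had 391 in the main list, 241 in replicate 1 and 151 in replicate 2, and stood 144 bp upstream of mRpL37. The peak of mRpL53 (FBgn0050481, 2R) had 306 in the main list, 173 in replicate 1 and 132 in replicate 2, and was 59 bp upstream of the TSS that mRpL53 shares with CG33155 and 111 bp from that of AGO1, the Argonaute gene of the microRNA pathway. All 3 were in both own lists.

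The peak of mRpL4 (FBgn0001995, 2L), for a protein that lines the tunnel, had 292 in the main list, 159 in replicate 1 and 138 in replicate 2, with its summit 97 bp upstream of mRpL4 and 696 bp upstream of CG4440. The peak of mRpL34 (FBgn0083983, 2R) had 281 in the main list, 181 in replicate 1 and 101 in replicate 2, and lay 259 bp upstream of mRpL34 and 125 bp upstream of Dg, which encodes dystroglycan. The peak of mRpL39 (FBgn0036462, 3L), a protein related to threonyl-tRNA synthetase, had 243 in the main list, 124 in replicate 1 and 109 in replicate 2, and lay 123 bp upstream of mRpL39 and 162 bp upstream of the proteasome subunit gene Prosbeta2. All 12 peaks were thus shared with at least 1 other protein-coding gene.

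**Figure D3:**
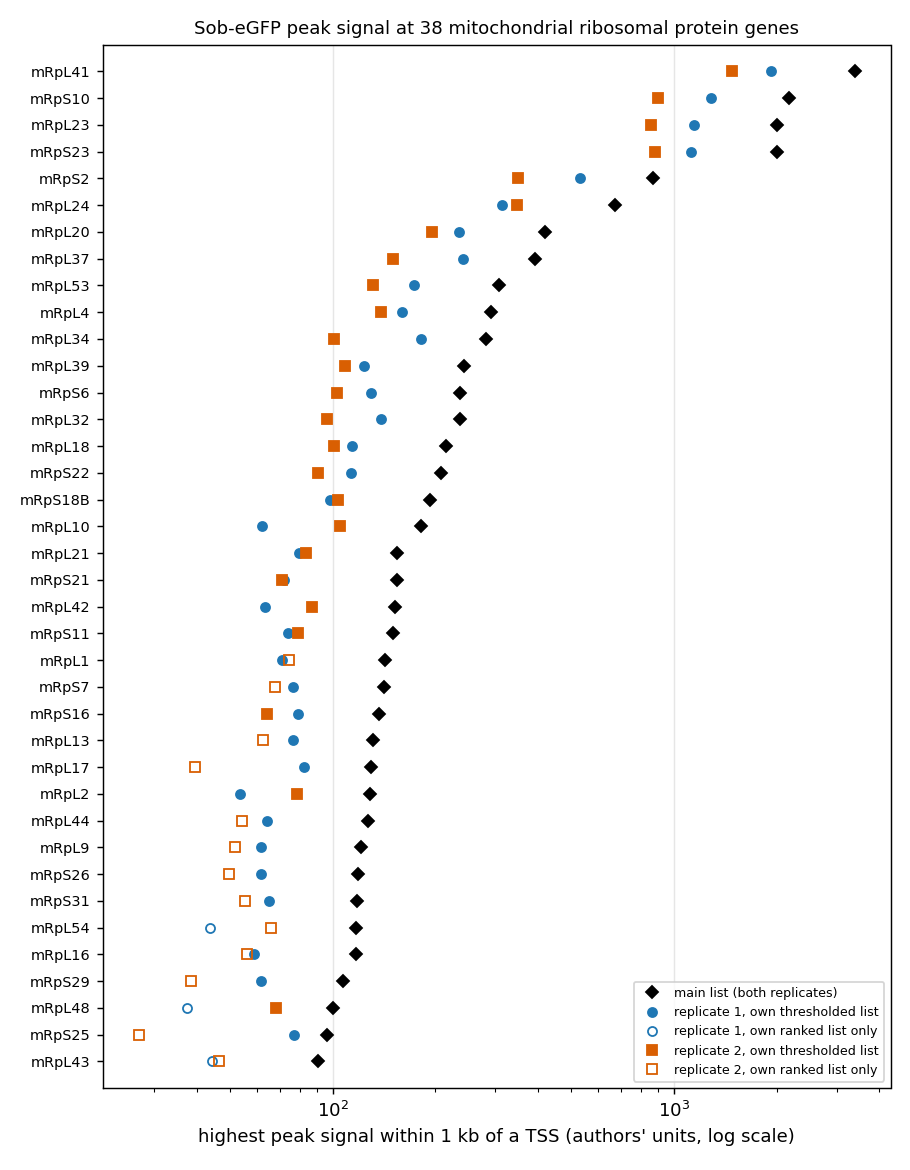
Highest signal of a Sob-eGFP peak within 1 kb of a TSS of each of the 38 marked mRp genes (authors' units, log scale), in the main list (black diamonds), replicate 1 (blue circles) and replicate 2 (orange squares); filled replicate symbols are in that replicate's own thresholded list, open ones in its ranked list alone. The 4 highest members exceed 2000 in the main list, filled symbols run down to mRpS11 without a gap, and open squares outnumber open circles below it.

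Between these and the weakest were mRpS6, mRpL32, mRpL18, mRpS22, mRpS18B, mRpL10, mRpL21, mRpS21, mRpL42, mRpS11, mRpL1, mRpS7, mRpS16, mRpL13, mRpL17, mRpL2, mRpL44, mRpL9, mRpS26 and mRpS31, with signals from 237 for mRpS6 down to 118 for mRpS31. Among them are mRpL2, at the peptidyl transferase centre, mRpL1, of the stalk beside the exit site, and mRpL44, which is related to ribonuclease III. Their divergent neighbours include the cell cycle kinase gene Cdk1 (at mRpS7), the chromatin remodelling gene Snr1 (at mRpL44) and the tafazzin gene Taz (at mRpL18), whose product remodels cardiolipin in mitochondria.

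The 6 weakest were mRpL54 with 117.2, mRpL16 with 117.0, mRpS29 with 107, mRpL48 with 100.3, mRpS25 with 96.2 and mRpL43 with 90.6. The gene mRpS29 encodes the GTP-binding protein known in mammals as DAP3, and mRpL16 a protein near the site where tRNA enters. All of the 38 peaks but that of mRpL43 had the highest deposited score of 1000, and mRpL43 had 907. Second peaks within 1 kb were present at mRpL21, mRpS26 and mRpS31.

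Members marked in both own lists were mostly those with higher signals in the main list. That list was made from both replicates, so this order is largely built in and is no separate sign of agreement. Of the 38 marked members 24 (63.2%) were marked in both own lists, against 57.4% of all marked genes, and these included the 22 strongest. In the 24, signals of replicates 1 and 2 had a Spearman correlation of 0.878 across genes, against 0.804 across 2633 marked genes. Both correlations cover only genes marked in both own lists. Genes that share a peak are not independent points, and no p-value is given.

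The members marked in replicate 1 alone numbered 11, and only mRpL48 was marked in replicate 2 alone. The 11 were mRpL1, mRpS7, mRpL13, mRpL17, mRpL44, mRpL9, mRpS26, mRpS31, mRpL16, mRpS29 and mRpS25. Their signals in replicate 1's own list were 58.7 to 82.3. In replicate 2 they were listed among its ranked peaks, as were 99.7% of all marked genes, so the listing itself tells nothing about them. Their values there were signals of 27.0 to 74.3 and a −log10 irreproducible discovery rate (IDR) of 0.602 to 1.95, where 2 is the threshold of 0.01.

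Some of these members had similar values in both replicates' lists and others did not, although values of different lists need not share a scale. At mRpL1 the signals were 70.9 in replicate 1, where it passed, and 74.3 in replicate 2, where it did not. At mRpS7 they were 76.4 in replicate 1 and 67.7 in replicate 2, and at mRpL13 76.5 and 62.6. The widest gaps were those of mRpS25, with 77.1 in replicate 1 and 27.0 in replicate 2, and mRpL17, with 82.3 and 39.5. At mRpL48, in reverse, the values were 37.4 in replicate 1 and 68.1 in replicate 2. The weak members mRpL54 (43.6 in replicate 1 and 65.8 in replicate 2) and mRpL43 (44.2 and 46.3) passed in neither own list.

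The replicates' lists also differed in base composition and in divergent promoters over the whole genome. The median G and C share at promoter summits was 36.6% in replicate 1's own list and 39.6% in replicate 2's. Of all divergent genes, replicate 1 marked 42.3% and replicate 2 marked 39.6%, while of the 58 divergent members they marked 34 and 24. The part of these values in the members' counts was not tested.

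The other 35 members were not marked. Of the large subunit these were mRpL3, mRpL11, mRpL12, mRpL14, mRpL15, mRpL19, mRpL22, mRpL27, mRpL28, mRpL30, mRpL33, mRpL35, mRpL36, mRpL38, mRpL40, mRpL45, mRpL46, mRpL47, mRpL49, mRpL50, mRpL51, mRpL52 and mRpL55. Of the small subunit they were mRpS5, mRpS9, mRpS14, mRpS17, mRpS18A, mRpS18C, mRpS24, mRpS28, mRpS30, mRpS33, mRpS34 and mRpS35.

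In the ranked list of both replicates, which also holds peaks that miss the threshold, 33 of the 35 had a summit within 1 kb of a TSS (94.3%), against 77.9% of all unmarked genes. With 115513 peaks in that list such a summit is common at any gene. Signals of the 33 ran from 26.1 to 256 with a median of 55.9, against a median of 47.4 for the unmarked genes with such a peak, and 31 of the 33 were below 100 (93.9%), against 97.6% of those genes. No such peak was listed for mRpL40 or mRpS5. Closest below the threshold were mRpL33 and mRpL51, with −log10 IDR values of 1.94 and 1.89 and signals of 68.8 and 68.5, and then mRpS24, with 1.72 and 61.7. Just behind them, mRpL28 and mRpL11 both had 1.70, with signals of 98.8 and 118.7, and both were in the authors' conservative list. All 4929 peaks of that list were in another ranked list of both replicates, where their lowest −log10 IDR was 2.00. The ranked list used here, which holds every peak of the main list, had 4927 of them, with values down to 0.0906. Replicate 1's own list held mRpL11, at 73.7, and mRpS24, at 55.2.

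The exception was mRpL47, a large subunit protein of the tunnel exit that corresponds to bacterial L29. It had a ranked peak of 256.1 at place 1380, 48 bp upstream of its TSS, with a −log10 IDR of 4.90, and signals of 170.7 in replicate 1 and 92.3 in replicate 2, past the threshold in each. It was nevertheless in no thresholded list. Of the 7180 ranked peaks past the threshold, 179 were absent from the main list. A region file had been used for the thresholded but not the ranked lists, per the deposited file lists. Whether that file removed the mRpL47 peak was not tested. On signal alone mRpL47 would stand between mRpL34 and mRpL39.

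By chromosome arm, 9 of 12 members on 2L, 9 of 12 on 2R, 9 of 17 on 3L and 9 of 21 on 3R were marked. On X it was 2 of 11, mRpL16 and mRpS25, against 32.4% of the 2196 genes there, and replicate 2's own list marked neither. The X chromosome's members were mostly divergent, with 9 of 11, of which 2 were marked, against 48.9% of 783 divergent genes on X. Both were among the 6 weakest. The marked share over all genes lay between 31.4% and 34.4% on these 5 arms. No member lies on 4.

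Summits at these genes were rich in A and T. In the 101 bases around the summit the G and C share averaged 34.9% ± 11.0 over the 38 members and 40.3% ± 11.3 over the 4181 promoter peaks of the main list (SD over peaks). Medians were 31.7% and 40.6%. Members ranged from 15.8% at mRpL20 to 60.4% at mRpS16. The longest run of A and T had a median of 9.5 bases in members and 8 bases in all promoter peaks, and was 30 bases at mRpL20 and 32 bases at mRpS25.

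The strongest members were mostly rich in A and T. The 12 members of highest signal had a median of 26.2% G and C, within a range of 15.8% to 55.4%, and the other 26 a median of 36.6%. The first 8 had at most 29.7%, a number chosen after the values had been seen, and the next in rank, mRpL53 and mRpL4, had 55.4% and 45.5% at signals of 306 and 292. All promoter peaks showed the same relation: the Spearman correlation of G and C share with signal was −0.363 across the 38 members and −0.377 across 4181 promoter peaks, which come from the same libraries. The 473 promoter peaks at or above the signal of the eighth member, mRpL37, had a median of 28.7% G and C. A low share did not go with a high signal in every member, since mRpS25 had 20.8% and a signal of 96.2, and mRpL43 had 26.7% and 90.6.

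**Figure D4:**
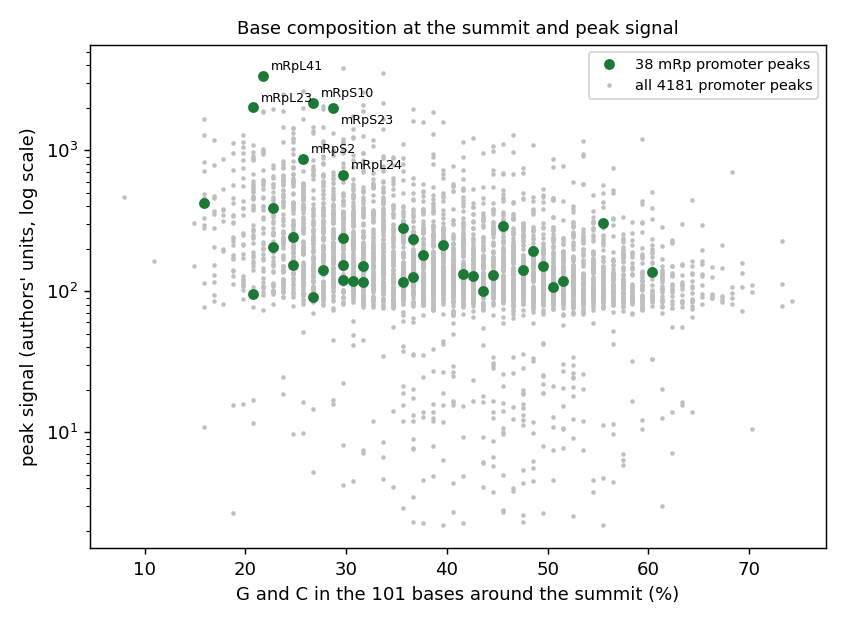
Peak signal (authors' units, log scale) against the G and C share of the 101 bases around the summit, for the promoter peaks of 38 mRp genes (green) and all 4181 promoter peaks of the main list (grey). The 4 members above 2000 lie between 20.8% and 28.7% G and C, at the upper left edge of the grey cloud.

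Known promoter motifs were searched within 50 bp of the summit on both strands, and their shares are those of 38 members and of 4181 promoter peaks. TATCGATA, the core of the DNA replication-related element (DRE), was present at mRpS18B and mRpS29, which is 5.26% of members, against 4.09% of promoter peaks. Its last letters, CGATA, which overlap it, were at 9 members (23.7%), against 23.7% of promoter peaks. At mRpS18B the element lay near the summit, in capitals in the following window.
mRpS18B, chr2L:20097195-20097295 (minus strand): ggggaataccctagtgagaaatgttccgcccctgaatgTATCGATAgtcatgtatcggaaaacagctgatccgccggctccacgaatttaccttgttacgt

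Other motifs were at few of these summits. TATAAA was at 6 members, mRpL23, mRpL37, mRpS7, mRpS31, mRpL54 and mRpL43 (15.8%), against 14.4% of promoter peaks. CAGCTG was at mRpL18, mRpS18B and mRpL54 (7.89%), against 6.15%, and GTATTTTT at mRpL41 and mRpL44 (5.26%), against 2.34%. GAGAG was at 0 of 38 members, against 13.3% of promoter peaks. Also at 0 members were GGTCACAC (2.39% of promoter peaks), CATCACTA (1.08%), CACGTG (1.27%), GCGCATGC (0.407%) and CCGGAAG (0.383%). ACAGTAGC, a motif of the odd-skipped family, and its part CAGTAGC were at 0 members, against 0.0957% and 0.718% of promoter peaks. These letters are absent from these windows, and matches and their lack are descriptions.

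Other ribosomal and mitochondrial genes differed from these in level and share. Over all protein-coding genes 32.9% were marked, with a median signal of 168.3. Cytoplasmic ribosomal protein genes were marked more often, in 73 of 92 (79.3%), and had a higher median signal of 281.6, against 154.0 in the 38 mitochondrial members. Their highest signal was 1204, below the 4 highest mitochondrial members. Of these 92 genes 48 had 1 TSS, against 67 of the 73 members, and genes with more TSSs have more places where a peak counts. The part of this in the share and the median was not tested. Respiratory chain and ATP synthase genes, whose products include the partners of what mitochondrial ribosomes make, were marked in 31 of 88 (35.2%). Their median was 177.9, and both values were near those of all genes. The 4 strongest of them all encode complex I proteins, ND-ASHI at 624.8, ND-MWFE at 466.2, ND-24 at 460.8 and ND-51 at 393.8.

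Other genes of mitochondrial gene expression were marked in 19 of 48 cases (39.6%), against 32.9% of all protein-coding genes. Their median signal was 113.7, against 168.3 for all marked genes. A divergent neighbour was present for 54.2% of them, against 36.2% of all genes. The mitochondrial ribosomal protein genes tko and bonsai, which the symbol rule leaves out, were not marked. Of 10 translation factor genes 5 were marked, with mIF2 at 151.8, mRF1 at 120.3, mEFTu1 at 110.5, mEFTs at 100.9 and CG30100 at 92.8, and mEFTu2, mEFG1, mRRF1, mRRF2 and mIF3 were not. Of 16 tRNA synthetase genes 5 were marked (31.2%), with LeuRS-m at 850.7, AspRS-m at 113.7, Slimp, a relative of seryl-tRNA synthetase, at 93.5, ProRS-m at 91.3 and PheRS-m at 88.8. The summits of LeuRS-m and mEFTu1 were far from their TSSs, at −863 and −605 bp, against a median of −50 bp over the 19 marked genes. Slimp, PheRS-m and CG30100 were in neither replicate's own list.

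The genes that keep and copy mitochondrial DNA were marked in 27.3% and those that process its RNA in 66.7%, against 32.9% of all genes. Divergent neighbours were present for 63.6% and 88.9% of these small lists, against 36.2% of all genes. The part of this arrangement in the shares was not tested. Of 11 replication and transcription genes 3 were marked, with mtSSB, the single-stranded DNA-binding protein, at 383.0, the polymerase subunit gene PolG2 at 198.8 and mTerf5 at 98.0. The RNA polymerase gene PolrMT, TFAM, mtTFB1, mtTFB2, mTTF, mTerf3, PolG1 and mtDNA-helicase were not. Of 9 RNA processing and stability genes 6 were marked, with PNPase at 2162, SLIRP2 at 1213, RNaseZ at 191.2, SLIRP1 at 188.4, Suv3 at 96.6 and bsf at 78.0, and rswl, mldr and scu were not. Suv3 and bsf were in neither replicate's own list, and are named here, like CG30100 and PheRS-m, after their values were seen. PNPase, which encodes polynucleotide phosphorylase, was thus in the range of mRpS10, at 2172.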

How the data were processed

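Chromatin from 2 biological replicates of whole embryos was sonicated to 200 to 800 bp and immunoprecipitated, per the labels. The files are peak lists on dm6, each made from 1 or both replicates with a control, per the deposited file lists. The aligner and peak caller were not given in the sources used here. The signal of a peak is the authors' own value, on a scale that is not stated. The deposited score expresses the IDR, with 1000 as its highest value. The −log10 values deposited in the ranked lists are the global IDR. No file holds read counts, so the depth is unknown.

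Analyses used the 7001 peaks of the main list on the 6 main arms, the conservative list (4929 peaks), each replicate's own list, and the ranked lists. Gene models were Ensembl release 115 (annotation 6.54). A gene's signal is the highest among peaks with a summit within 1000 bp of a TSS. Distances between genes, windows of 50 bp around the summit and 13 motifs were computed with Python 3.11.15, pandas 2.3.3, numpy 2.4.6 and scipy 1.17.1. The assignment of peaks to genes and the search for divergent neighbours were tested on simulated data. Shares are set beside the same share over all genes, and no p-value is given. The members, lists, motifs and the rule for naming genes (the 12 strongest and 6 weakest marked members in full, members marked in 1 replicate, and all unmarked ones) were chosen with earlier results of these data known. Of the other mitochondrial genes listed, 13 symbols matched no gene and were left out. Alternatives were the conservative list, each own list, other promoter, window and partner distances, the stronger 50% of peaks, and only the first TSS. The divergent neighbour of mRpL37 is not reported here.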

Additional observations from a re-analysis of the deposited data

How the results depend on the processing

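The count of 38 marked members was 35 in the conservative list, 36 with summits within 500 bp, 47 within 2000 bp and 38 with only the first TSS of each gene, against 26.2%, 29.0%, 39.2% and 30.8% of all genes. It fell to 25 (34.2%) with the stronger 50% of peaks, against 21.2% of all genes, and was 25 to 37 without 1 replicate. The median signal, 154.0 in the main list, was 181.4 in the conservative list, 236.9 with the stronger 50% of peaks and 79.6 to 103.9 without 1 replicate, where signals have another level. The median summit position of −139 bp was −133 bp in the conservative list, −123 bp within 2000 bp or with the stronger 50% of peaks, and −123 to −115 bp without 1 replicate. The count of members with TATCGATA, 2 in the main list, was 4 within 100 bp, 1 in the conservative list, 9 for CGATA and 0 to 3 without 1 replicate. Of these settings, only CGATA has its share over promoter peaks given, at 23.7% for both members and promoter peaks. Divergent partners were found for 58 members within 1000 bp, 53 within 500 bp and 33 within 300 bp. The shares of all genes at the 2 shorter distances are not given, so these counts have no background beside them. The median gap was 283 bp for divergent members and 298 bp for all divergent genes. The 24 members marked in both own lists were 19 to 29 under the other rules, for which the share of all genes is not given. The cause of these shifts was not tested, and signals without a stated scale and unknown depth limit what the lists can show. No paired analysis was possible because there was 1 group.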
